A study of Mus musculus with 16 samples.

Results

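Bile duct, progenitor and oncofetal genes were described in mouse liver after repeated injury with carbon tetrachloride (CCl4), with and without Lcn2, the gene of the secreted protein lipocalin 2. The 8 genes were chosen by name, as markers of cholangiocytes and liver progenitor cells (Krt19, Krt7, Epcam, Sox9, Cd24a and Prom1) and as genes of the fetal liver that return in liver tumours (Afp and Gpc3). All 8 were measured and all 8 passed the filter on dim probes, among 24357 genes tested. RNA of whole liver was hybridised to 16 Agilent arrays in 1 colour, 1 array for each labelled sample. Of the arrays, 4 came from WT and 3 from Lcn2-/- control livers, and 5 from WT and 4 from Lcn2-/- livers after CCl4. The mice were BALB/c males that entered the experiment at 6 to 8 weeks of age. CCl4 was injected into the abdomen in corn oil at 0.5 ml/kg body weight, 2 times a week for 4 weeks, mice were killed 48 h after the final injection, and controls were given corn oil. The Lcn2 deletion was made on a mixed 129/Ola and C57BL/6 background and crossed into BALB/c for several generations, so every Lcn2-/- mouse lacks the gene in all tissues and may carry donor DNA beside it.

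Cholangiocytes line the bile ducts and carry the keratins 7 and 19, which adult hepatocytes do not make. In many kinds of chronic liver injury, small ducts and progenitor cells spread from the portal tracts, a change called the ductular reaction, and hepatocytes can switch on Sox9. Afp and Gpc3 are abundant in the fetal liver, fall silent after birth and are used as markers of hepatocellular carcinoma. In the BALB/cJ substrain a natural mutation of the repressor gene Zhx2 leaves Afp, Gpc3 and the non-coding RNA H19 incompletely silenced in the adult. The labels give BALB/c and no substrain.

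Signal was well above background on 51.6% to 60.9% of the spots of an array. Lcn2 itself, as the check of the genotype labels, ranged from 13.79 to 17.57 on the log2 scale over the WT arrays and from 10.47 to 12.25 over the Lcn2-/- arrays, with no overlap, and the hepatocyte product Alb ranged from 18.75 to 19.08 over all arrays. The Lcn2 probe still gave signal well above background on 3 of 3 Lcn2-/- control arrays and 4 of 4 Lcn2-/- CCl4 arrays. The 2 slides nearly followed the treatment. Slide 1 held all control arrays and WT CCl4 array 1, and slide 2 held the other CCl4 arrays. The row of the slide nearly followed the genotype, since all Lcn2-/- arrays and WT CCl4 array 1 lay in the same row. WT CCl4 array 1 is therefore the only array by which slide can be told apart from treatment, and its values are given separately where they matter. Levels are log2 of the quantile-normalized signal of 1 probe. Each probe has its own brightness, so levels were compared between arrays and never between genes. In whole liver, more cells of a type and more RNA per cell cannot be told apart.

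After CCl4, 3 of the 8 genes changed in WT mice and 2 of the 8 in Lcn2-/- mice (limma, adjusted p under 0.05), all of them upwards. In WT 16.8% of all genes tested passed that threshold, 8.01% upwards, and in Lcn2-/- 12.2% passed, 6.57% upwards. Counts of the gene lists below are to be read beside these shares. Both oncofetal genes rose in both genotypes, by 6.75-fold to 19.3-fold. Of the 6 biliary and progenitor genes, Prom1 rose in WT and none passed in Lcn2-/-. The median log2 change of these 6 genes was 0.32 in WT and 0.76 in Lcn2-/-, against -0.03 and -0.02 over all genes tested. Both CCl4 responses are set against their own control group and share no arrays.

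**Figure D1:**
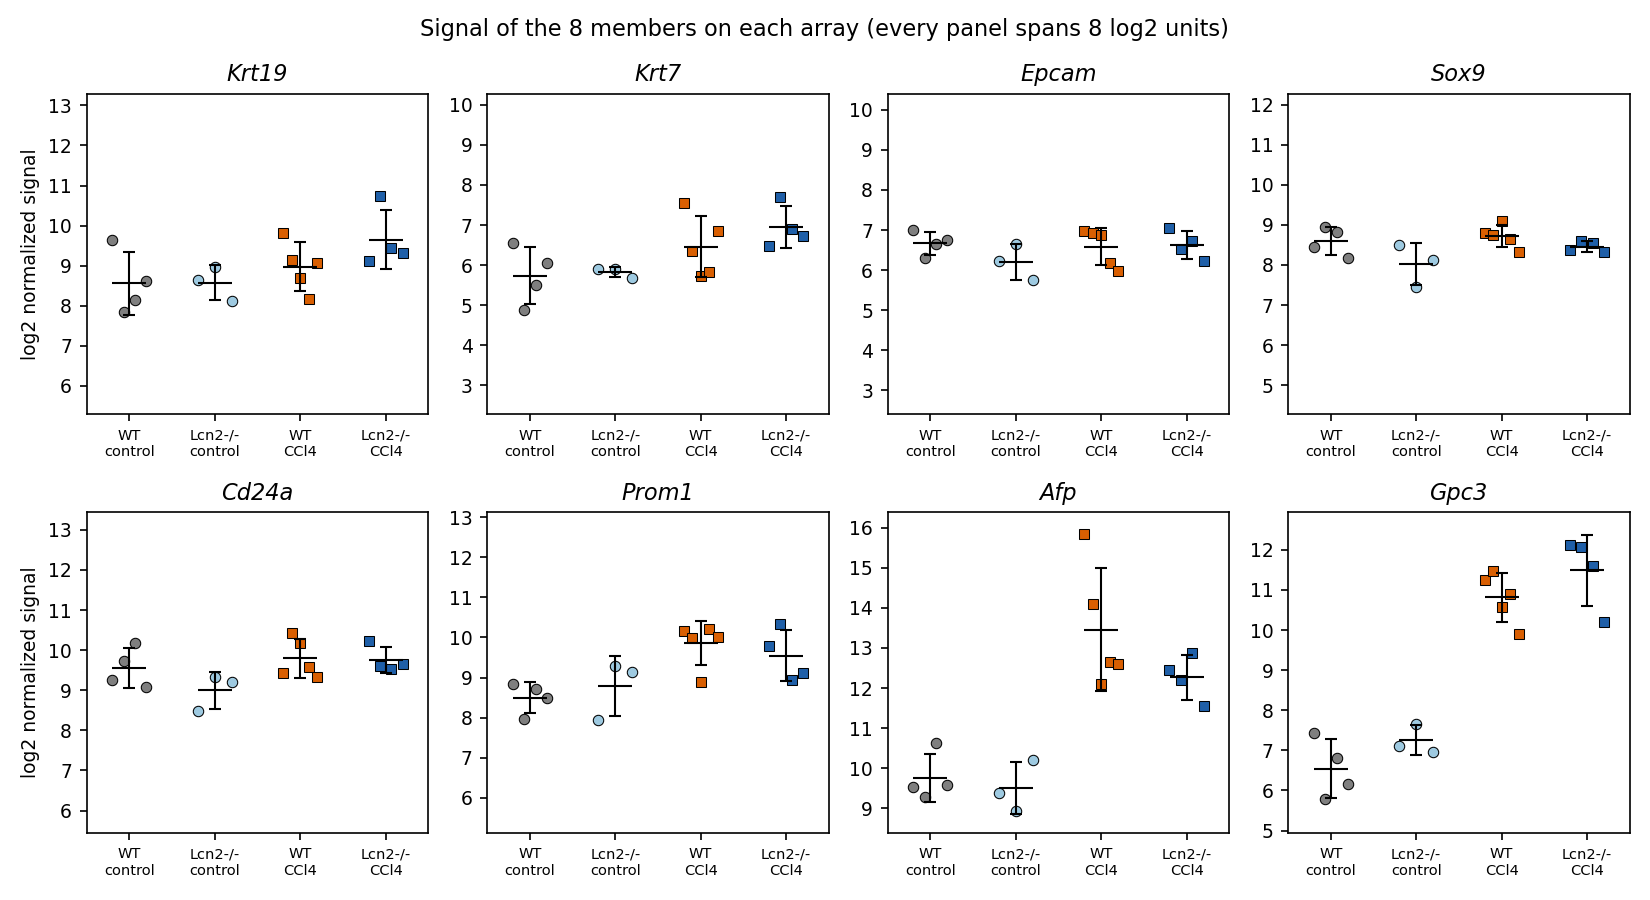
Log2 normalized signal of the 8 members on each of the 16 arrays. Points are arrays (circles control, squares CCl4), the horizontal line is the group mean and the bar is 1 SD; every panel spans the same range of log2 units around its own centre. Control and CCl4 arrays do not overlap in either genotype for Afp and Gpc3, in WT for Prom1, and in Lcn2-/- for Krt19, Krt7 and Cd24a. CCl4 arrays lie wholly above control arrays for 8.03% of all genes tested in WT and 12.1% in Lcn2-/-, and the groups lie apart in either direction for 17.4% and 24.8%.

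Gpc3 encodes glypican 3, a heparan sulphate proteoglycan anchored to the cell surface that binds growth factors. Its probe lies at chrX:49625740-49625799 (mm9, minus strand). The WT control arrays measured 7.44, 5.78, 6.81 and 6.16 and the WT CCl4 arrays 11.24, 11.47, 10.57, 10.89 and 9.91. The Lcn2-/- control arrays measured 7.12, 7.67 and 6.96 and the Lcn2-/- CCl4 arrays 12.11, 12.06, 11.6 and 10.21. Every CCl4 array lay above every control array, and the lowest of all CCl4 arrays, WT 5, was above the highest control array by more than the whole range of the WT controls. The increase was 19.3-fold in WT (95% confidence interval 10.2 to 36.6, log2 difference 4.27, SE 0.432, limma adjusted p = 2.05e-05). It was 19-fold in Lcn2-/- (9.16 to 39.4, log2 difference 4.25, SE 0.491, limma adjusted p = 9.21e-05). The 2 responses differed by -0.02 on the log2 scale (95% confidence interval -1.42 to 1.38), an interval that spans a more than 2-fold difference either way. On slide 1 alone, WT CCl4 array 1 exceeded the WT control mean by 4.70.

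Afp encodes alpha-fetoprotein, the main plasma protein of the fetus. Its probe (chr5:90937781-90937840, mm9, plus strand) was printed on 10 spots of each array, whose log2 signals had an SD of 0.0169 to 0.0722 within an array. The WT control arrays measured 9.52, 9.29, 10.63 and 9.58, and the Lcn2-/- control arrays 9.39, 8.93 and 10.21. The WT CCl4 arrays measured 15.85, 14.09, 12.09, 12.66 and 12.59, and the Lcn2-/- CCl4 arrays 12.45, 12.2, 12.87 and 11.54. No CCl4 array overlapped a control array, and the WT CCl4 arrays were spread far more widely (SD 1.53) than those of any other group (SD 0.558 to 0.65), with array 1 and then array 2 standing above the rest. The increase was 13-fold in WT (95% confidence interval 5.12 to 32.9, log2 difference 3.70, SE 0.627, limma adjusted p = 0.001). It was 6.75-fold in Lcn2-/- (2.34 to 19.5, log2 difference 2.75, SE 0.713, limma adjusted p = 0.021).

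The Afp increase in Lcn2-/- no longer passed when Lcn2-/- control array 1, Lcn2-/- control array 2 or Lcn2-/- CCl4 array 3 was left out (adjusted p = 0.0739, 0.0952 and 0.0566), and it passed in the other 13 of 16 such fits. In WT it passed in all 16, with a log2 difference of 3.1 without WT CCl4 array 1. With slide as a block the increase was 6.09 in WT and 5.75 in Lcn2-/- (adjusted p = 0.000601 and 0.00477), estimates that rest on WT CCl4 array 1. Under CCl4, Afp differed by -1.19 between Lcn2-/- and WT (95% confidence interval -2.53 to 0.15, limma adjusted p = 0.426), and by -0.59 over the arrays of slide 2. With the row of the slide as a block, a fit chosen after seeing the data, the difference was -3.59 under CCl4 (adjusted p = 0.0559) and -3.24 in controls (adjusted p = 0.279), against -0.25 in controls without it. These estimates also rest on WT CCl4 array 1, by which alone row and genotype are separated. The difference between the 2 responses was -0.94 (-2.98 to 1.09, adjusted p = 1), and -0.35 without WT CCl4 array 1.

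The stretch around the start of both genes is shown because these are the members that rose together in both genotypes. The sequences are from RefSeq on GRCm38.p6, on the strand of the gene, and each spans 300 bases around the annotated start. Capitals mark matches on either strand to TATAAA, an element near the start of many genes, to CCAAT, the site of the factor NF-Y, and to TGTTTAC, the site of the FOXA factors. The Afp stretch is chr5:90490464-90490763 (plus strand) and the Gpc3 stretch chrX:52613925-52614224 (minus strand).
Afp: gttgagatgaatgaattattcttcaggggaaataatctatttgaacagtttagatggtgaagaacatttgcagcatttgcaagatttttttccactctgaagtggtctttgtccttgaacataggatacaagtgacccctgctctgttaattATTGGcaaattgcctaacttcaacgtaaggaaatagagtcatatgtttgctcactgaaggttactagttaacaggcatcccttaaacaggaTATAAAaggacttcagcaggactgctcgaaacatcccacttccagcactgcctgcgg
Gpc3: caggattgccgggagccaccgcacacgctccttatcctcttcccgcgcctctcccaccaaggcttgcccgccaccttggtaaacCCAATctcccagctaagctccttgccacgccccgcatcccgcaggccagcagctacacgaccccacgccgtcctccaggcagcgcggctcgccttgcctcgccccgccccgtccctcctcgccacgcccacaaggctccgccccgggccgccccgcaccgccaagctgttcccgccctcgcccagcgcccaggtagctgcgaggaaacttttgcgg
The Afp stretch held CCAAT on the other strand at -98 and TATAAA at -7 from the annotated start, and these did not overlap. Of 32851 RefSeq stretches of that length, 37.4% held CCAAT, 13.6% TATAAA and 3.6% TGTTTAC on either strand. The Gpc3 stretch held CCAAT at -166 and none of the others. The 2 also differed in base composition, with 40% G or C and 3 CpG in Afp against 70.7% and 30 CpG in Gpc3, where the median of all stretches was 52.7% and 7 CpG. A match is a run of letters and was not tested for binding. Stretches of Krt7, Epcam and Prom1 were also in the table, and 5 of the 8 members had one.

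Prom1 encodes prominin 1 (CD133), a membrane protein of cell protrusions used as a progenitor marker. Its tested probe lies at chr5:44384861-44384920 (mm9, minus strand). The WT control arrays measured 8.85, 7.97, 8.71 and 8.48 and the WT CCl4 arrays 10.16, 9.99, 8.9, 10.22 and 10.01. WT CCl4 array 3 lay just above the highest WT control array, and the other WT CCl4 arrays lay close together above it. The Lcn2-/- control arrays measured 7.93, 9.29 and 9.15 and the Lcn2-/- CCl4 arrays 9.78, 10.33, 8.94 and 9.12, and these groups overlapped. The increase was 2.56-fold in WT (95% confidence interval 1.5 to 4.37, log2 difference 1.35, SE 0.36, limma adjusted p = 0.019). In Lcn2-/- the log2 difference was 0.75 (-0.13 to 1.63, adjusted p = 0.258), and it was 0.32 without Lcn2-/- control array 1 and 0.49 without Lcn2-/- CCl4 array 2. The 2 responses differed by -0.60 (-1.77 to 0.57, adjusted p = 1), and by -1.03 to -0.35 with each array left out in turn. The WT call was lost without WT control array 2 (log2 difference 1.18, adjusted p = 0.0727) and with slide as a block (1.66, adjusted p = 0.144).

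A second Prom1 probe, at chr5:44397410-44397469 (mm9, minus strand), is shown because it reads another stretch of the gene.
Prom1 second probe: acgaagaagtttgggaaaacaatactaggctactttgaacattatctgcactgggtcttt
It was well above background on 0 of 7 control arrays, on 2 of 5 WT CCl4 arrays (arrays 2 and 4, at 5.73 and 5.56) and on 2 of 4 Lcn2-/- CCl4 arrays (arrays 1 and 2, at 6.14 and 6.07). The control arrays ranged from 2.86 to 3.51. With no measured control level, only a bound can be given: the signal was at least 1.23-fold higher after CCl4 in WT, a mean over 5 arrays of which 2 measured it. The limma adjusted p over all probes was 0.0249 in WT. It compares with control values that were not well above background, so it does not test that bound. In Lcn2-/- no fold is given, since the CCl4 mean did not exceed the floor, and the adjusted p was 0.089. The floor of a control array is its dimmest detected probe.

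Krt19 and Krt7 encode the intermediate filament proteins keratin 19 and keratin 7. Neither passed the test in either genotype, and both stood higher after CCl4 on average. Their probes lie at chr11:100002392-100002451 (mm9, minus strand) and chr15:101253718-101253777 (mm9, plus strand). The probe sequences are shown because the 2 genes moved together across arrays and keratin genes resemble each other. No part is in capitals, and the longest run of bases that the 2 probes share is 5.
Krt19 probe: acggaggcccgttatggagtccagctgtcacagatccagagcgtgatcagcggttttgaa
Krt7 probe: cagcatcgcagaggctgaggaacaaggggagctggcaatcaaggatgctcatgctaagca
For Krt19 the WT control arrays measured 9.65, 7.84, 8.14 and 8.61 and the WT CCl4 arrays 9.82, 9.14, 8.69, 8.17 and 9.08, and these groups overlapped widely. The Lcn2-/- control arrays measured 8.65, 8.98 and 8.11 and the Lcn2-/- CCl4 arrays 9.11, 10.75, 9.43 and 9.32, with no overlap and array 2 well above the others. The log2 difference was 0.42 in WT (95% confidence interval -0.48 to 1.32, limma adjusted p = 0.539) and 1.07 in Lcn2-/- (0.05 to 2.10, adjusted p = 0.165). For Krt7 the WT control arrays measured 6.54, 4.87, 5.5 and 6.05, with array 2 not well above background, and the WT CCl4 arrays 7.56, 6.36, 5.73, 5.82 and 6.84. The Lcn2-/- control arrays measured 5.9, 5.9 and 5.68 and the Lcn2-/- CCl4 arrays 6.47, 7.69, 6.89 and 6.72. Again the WT groups overlapped and the Lcn2-/- groups did not. The log2 difference was 0.72 in WT (-0.12 to 1.56, adjusted p = 0.235) and 1.12 in Lcn2-/- (0.16 to 2.07, adjusted p = 0.121). With each array left out in turn, the WT difference ranged from 0.18 to 0.78 for Krt19 (lowest without WT control array 2, highest without WT control array 1) and from 0.43 to 0.99 for Krt7 (lowest without WT control array 2), and without Lcn2-/- CCl4 array 2 that of Krt19 in Lcn2-/- was 0.71. With slide as a block, which rests on WT CCl4 array 1, Krt19 was 1.26 in WT and 2.13 in Lcn2-/-, and Krt7 1.82 and 2.49, and none passed (lowest adjusted p = 0.0844). The 2 responses differed by 0.65 for Krt19 (-0.71 to 2.02) and by 0.40 for Krt7 (-0.88 to 1.67), both with adjusted p = 1, and single arrays moved these to between 0.29 and 0.89 and between 0.13 and 0.69.

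**Figure D2:**
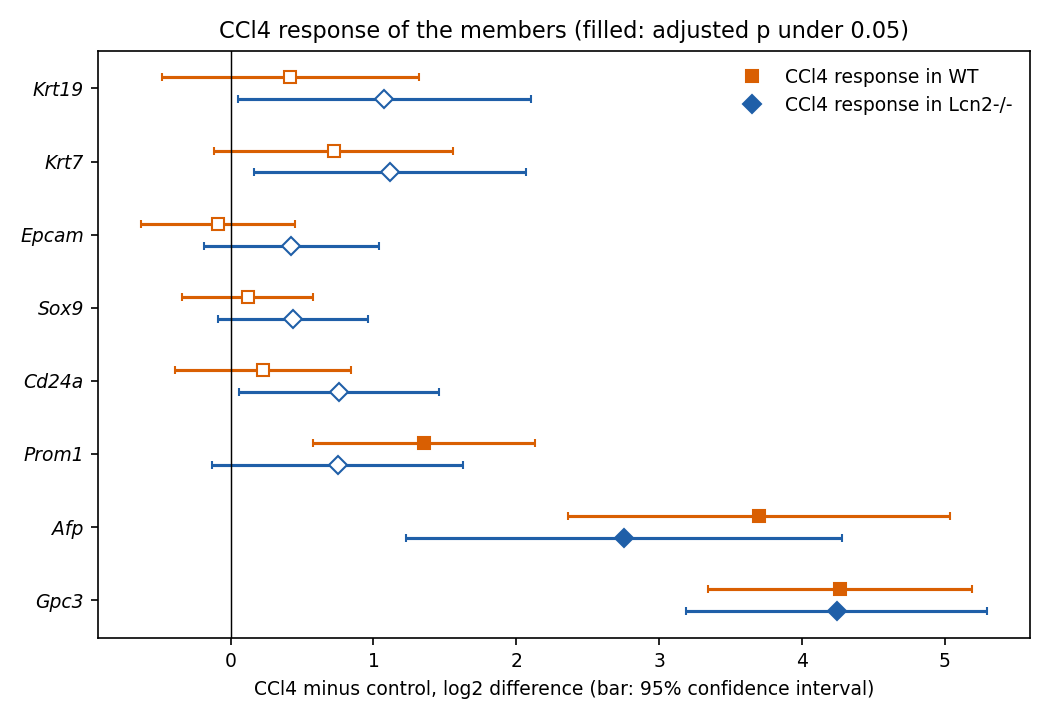
Log2 difference between CCl4 and control arrays for each member, in WT (squares) and Lcn2-/- (diamonds), with its 95% confidence interval from limma. Filled symbols passed adjusted p under 0.05: Prom1 in WT, and Afp and Gpc3 in both genotypes.

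Epcam, Sox9 and Cd24a did not pass in either genotype. Epcam encodes an adhesion protein of bile duct epithelium, and its probe spans chr17:88048972-88049800 (mm9, plus strand). It ranged from 6.3 to 6.99 over the WT control arrays, from 5.99 to 6.97 over the WT CCl4 arrays, from 5.75 to 6.65 over the Lcn2-/- control arrays and from 6.22 to 7.06 over the Lcn2-/- CCl4 arrays, so that all 4 groups overlapped. Its log2 difference was -0.09 in WT (95% confidence interval -0.63 to 0.45, limma adjusted p = 0.853) and 0.42 in Lcn2-/- (-0.19 to 1.04, adjusted p = 0.368), where it was 0.20 without Lcn2-/- control array 3 and 0.64 without Lcn2-/- control array 2.

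Sox9 encodes the transcription factor that marks ductal cells and hepatocytes adopting a ductal state. Its probe (chr11:112648809-112648868, mm9, plus strand) was on 10 spots of each array, with an SD of 0.0204 to 0.129. It ranged from 8.17 to 8.95 over the WT control arrays, from 8.32 to 9.1 over the WT CCl4 arrays, from 7.45 to 8.5 over the Lcn2-/- control arrays and from 8.31 to 8.6 over the Lcn2-/- CCl4 arrays. The spread between arrays of a group thus exceeded the spread between spots. The log2 difference was 0.12 in WT (-0.34 to 0.58, adjusted p = 0.756) and 0.44 in Lcn2-/- (-0.09 to 0.96, adjusted p = 0.27), where it was 0.68 without Lcn2-/- control array 1 and 0.15 without Lcn2-/- control array 2. In the fit without slide, the WT interval ends below a 1.5-fold increase, the upper bound being 1.49-fold. With slide as a block, which rests on WT CCl4 array 1, the WT difference was 0.19. Its SE was then 0.369 against 0.214, so the interval was wider.

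Cd24a encodes a glycoprotein of the cell surface found on bile duct cells, progenitors and many blood cells. Its probe lies at chr10:43303706-43303765 (mm9, plus strand). It ranged from 9.07 to 10.19 over the WT control arrays and from 9.34 to 10.42 over the WT CCl4 arrays. The Lcn2-/- control arrays, at 8.47, 9.32 and 9.2, lay below the Lcn2-/- CCl4 arrays, at 10.24, 9.61, 9.52 and 9.65. The log2 difference was 0.23 in WT (-0.39 to 0.84, adjusted p = 0.641) and 0.76 in Lcn2-/- (0.06 to 1.46, adjusted p = 0.149), where it was 0.50 without Lcn2-/- control array 1. The WT difference of Cd24a was 0.06 without WT control array 4 and 0.43 without WT control array 3. Neutrophil and lymphocyte markers are given with it, since those cells also carry Cd24a. Of 8 neutrophil markers, 5 rose and 0 fell in WT, and 1 rose in Lcn2-/- (Mmp8, at least 2.27-fold, with 0 of 3 control arrays well above background). The mean of the 8 ranged from -0.88 to 1.60 over the WT control arrays, 1.58 to 2.52 over the WT CCl4 arrays, -1.32 to 1.95 over the Lcn2-/- control arrays and 1.24 to 1.63 over the Lcn2-/- CCl4 arrays. Of the control arrays, WT 3 (1.60) and Lcn2-/- 3 (1.95) stood highest, and the latter lay above every Lcn2-/- CCl4 array. Mmp8, Ngp and Ltf were each well above background on 1 of 4 WT control arrays. On Lcn2-/- control arrays they were so on 0, 1 and 1 of 3, so the control means rest in part on dim signals. Of 6 B and T cell markers tested, 0 rose and 1 (Cd3e) fell in WT, and none passed in Lcn2-/-. Their part in Cd24a was not tested.

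The genotypes were compared directly under each treatment. None of the 8 genes passed between Lcn2-/- and WT under CCl4, in controls, or in the difference of the 2 responses (limma), where 0.636%, 0.53% and 0.0534% of all genes tested did. At an unadjusted p under 0.05 the counts were 0, 1 and 0 of the 8, against 13.7%, 8.3% and 3.33% of all genes, so that 1 of 8 is near the share of all genes. The 1 gene was Sox9, which measured lower in Lcn2-/- control than in WT control by 1.5-fold (log2 difference -0.58, 95% confidence interval -1.11 to -0.06, adjusted p = 0.502), and by -0.30 on the log2 scale without Lcn2-/- control array 2. Under CCl4 the differences of the 6 biliary and progenitor genes ran from -0.31 for Prom1 to 0.67 for Krt19, and that of Gpc3 was 0.68 (-0.25 to 1.60, adjusted p = 0.507). These values moved with single arrays. Krt19 was 0.31 and Prom1 -0.58 without Lcn2-/- CCl4 array 2, Prom1 was -0.11 without Lcn2-/- CCl4 array 3, and Gpc3 ranged from 0.45 to 1.11 with each array left out in turn. A difference of 2-fold lies inside the intervals of Krt19, Krt7, Prom1, Afp and Gpc3 under CCl4 and of all 8 genes in controls, so these arrays do not show that the genotypes are alike in them.

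Averaged within each array, each gene first set against its WT control mean, the 2 oncofetal genes ranged from -0.62 to 0.57 over the WT control arrays, 0.10 to 0.43 over the Lcn2-/- control arrays, 3.09 to 5.39 over the WT CCl4 arrays and 2.72 to 4.13 over the Lcn2-/- CCl4 arrays. The 6 biliary and progenitor genes ranged from -0.33 to 0.35, -0.33 to -0.01, 0.16 to 0.85 and 0.28 to 0.98 in the same order. The oncofetal mean thus left a wide gap between treatments in both genotypes. The biliary mean of WT control array 1 (0.35) lay among the CCl4 arrays, whereas in Lcn2-/- the biliary means of control and CCl4 arrays did not overlap. WT CCl4 array 1 had the highest oncofetal mean and Lcn2-/- CCl4 array 2 the highest biliary mean. On slide 1, WT CCl4 array 1 exceeded the WT control mean by 1.26 for Krt19, 1.82 for Krt7 and 1.66 for Prom1, but by 0.29 for Epcam, 0.19 for Sox9 and -0.14 for Cd24a.

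**Figure D3:**
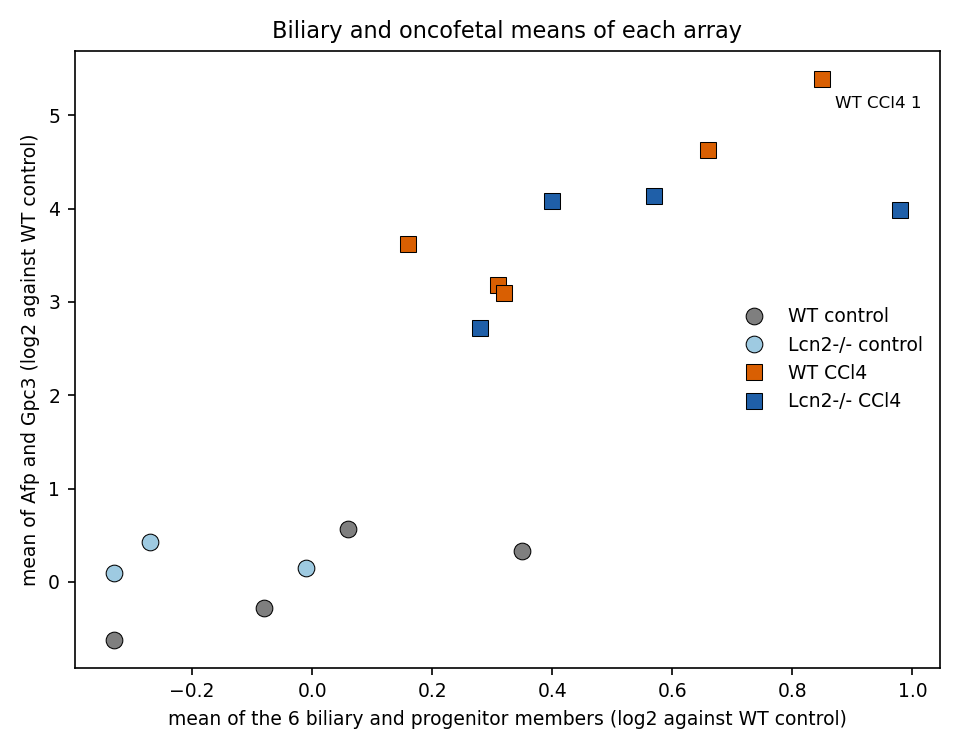
Mean of Afp and Gpc3 (vertical) against the mean of the 6 biliary and progenitor members (horizontal) on each array, both in log2 units against the WT control mean. Circles are control and squares CCl4 arrays. All CCl4 arrays lie at 2.72 or more on the vertical axis and all control arrays at 0.57 or less. The horizontal ranges meet in WT but not within Lcn2-/-.

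Across the 16 arrays the biliary and progenitor genes did not form 1 block. Pearson's r between pairs of them ran from -0.0638 (Krt19 with Sox9) to 0.927 (Krt19 with Krt7). These are descriptions over arrays of 4 groups, so that a shared treatment change enters them. With each array set against its own group mean, Krt19 and Krt7 still gave 0.903, while either keratin gave -0.213 to -0.539 with Sox9 and Cd24a and 0.245 to 0.475 with Epcam and Prom1. Among all genes tested, those most like Krt19 were Fxyd3 (r = 0.937), Krt7 (0.927) and Il17re (0.913), and those most like Krt7 were Nxph3 (0.937), Krt19 (0.927) and Il17re (0.915). Prom1 was most like Sult2a2 (0.874), Cyp2b10 (0.854) and Cyp2b9 (0.851), and Gpc3 most like Espn (0.963), Tnxb (0.959) and H19 (0.959). Cd24a was most like LOC675548 (0.911), Eif6 (0.887) and Dusp8 (0.879), and Epcam most like Scamp5 (0.781), Borcs6 (0.78) and Gpr135 (0.771). For Sox9 the nearest named gene was D930023I05Rik (0.816), behind a region without a symbol (0.822) and ahead of another (0.781). For Afp it was Tcaf1 (0.95), behind 2 probes without a symbol (0.982 and 0.951). Afp and Gpc3 gave 0.835 with each other, and 0.428 within groups.

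Mesothelial cells, which cover the surface of the liver, also make keratins 7 and 19, and Wt1 marks them. Of the 6 mesothelium markers tested, 3 rose in WT (Wt1 by 3.56, Upk3b by 1.80 and Gpm6a by 1.18 on the log2 scale) and 1 in Lcn2-/- (Wt1, by 3.05). Which cells made Wt1 was not measured. Msln, named after its values were seen, passed in neither genotype. It averaged 9.92 over the WT control and 10.21 over the WT CCl4 arrays, and 10.43 and 11.06 in Lcn2-/-. Their mean ranged from -0.71 to 0.96 over the WT control arrays, 0.18 to 0.62 over the Lcn2-/- control arrays, 0.93 to 2.69 over the WT CCl4 arrays and 0.80 to 3.30 over the Lcn2-/- CCl4 arrays. Lcn2-/- CCl4 array 2 and WT CCl4 array 1, the arrays highest in both keratins, were also the highest in this mean. All 6 markers were well above background on every WT CCl4 array, but on control arrays Upk1b was so on 1 of 4 in WT and 0 of 3 in Lcn2-/-, and Lrrn4 on 2 of 4 and 2 of 3, so the control means rest in part on dim signals. Upk1b was well above background on 3 of 4 Lcn2-/- CCl4 arrays. Over 16 arrays the mean gave r = 0.85 with Krt19 and 0.905 with Krt7, 0.714 and 0.82 without the 2 arrays farthest from the median, and 0.86 and 0.854 within groups. Within groups it gave 0.193 with Epcam, -0.0629 with Sox9 and -0.374 with Cd24a, and 0.452 with Prom1, 0.439 with Afp and 0.469 with Gpc3. For the last 3 of these r over all arrays was 0.727, 0.737 and 0.826, so the mean did not follow the keratins alone. The mean of 17 other cholangiocyte markers gave 0.215 with Krt19 and 0.145 with Krt7 within groups. The part of mesothelial cells in the keratin values was not tested.

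**Figure D4:**
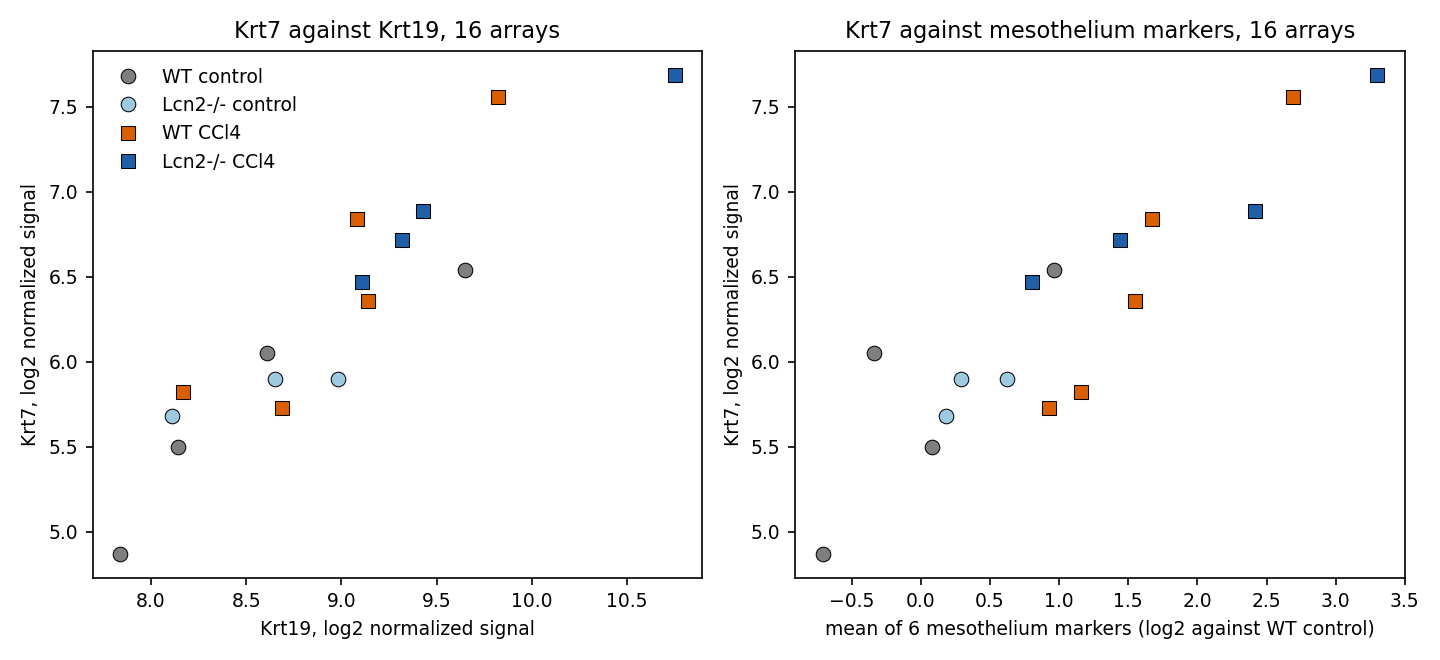
Krt7 signal against Krt19 signal (left) and against the mean of 6 mesothelium markers (right), in log2 units, for 16 arrays. Circles are control and squares CCl4 arrays; Krt7 rises along both axes within the treatments as well as between them (r = 0.927 and 0.905 over all arrays).

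The other cholangiocyte markers passed the test about as often as all genes did (16.8% in WT and 12.2% in Lcn2-/-). Of 22 listed, 17 were tested, and 5, among them Cldn4, Muc1, Itgb6 and Ggt1, were well above background on at most 2 arrays. In WT 2 rose and 1 fell, and in Lcn2-/- 2 rose and 0 fell, with median log2 changes of -0.07 and -0.06. Spp1, the secreted matrix protein osteopontin, which macrophages and stellate cells make as well, rose in WT by 1.67 (limma adjusted p = 0.0193) and by 2.10 in Lcn2-/- mice (0.0147). Anxa3, a membrane-binding annexin, rose by 2.09 and 1.89 (0.00202 and 0.0125). The anion exchanger gene Slc4a2 fell by 0.78 in WT (adjusted p = 0.00668) and measured -0.19 in Lcn2-/- (adjusted p = 0.577). The secretin receptor gene Sctr measured -0.23 and -0.19 and the chloride channel gene Cftr -0.18 in both, and neither passed.

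Genes of the ductular reaction and of its Notch, TWEAK and YAP signals were next. Of 21 tested, 5 rose and 2 fell in WT, and 3 rose and 1 fell in Lcn2-/-, with medians of 0.40 and 0.55. Among all genes tested, 8.01% rose in WT and 6.57% in Lcn2-/-. Between genotypes, 1 of the 21 passed in controls and none under CCl4. It was the Notch target gene Heyl, named after its values were seen, which ranged from 8.6 to 9.1 over the WT control arrays and from 7.33 to 8.33 over the Lcn2-/- control arrays (log2 difference -1.07, SE 0.218, limma adjusted p = 0.0463). Ncam1, an adhesion molecule of reactive duct cells and of stellate cells, ranged from 6.87 to 8.22 over the WT control arrays and from 10.96 to 11.26 over the WT CCl4 arrays, and from 6.32 to 6.68 and from 9.14 to 10.52 in Lcn2-/-. It rose by 3.52 in both (limma adjusted p = 2.66e-06 and 1.22e-05). The chemokine receptor gene Cxcr4 rose by 1.99 in WT (adjusted p = 0.0236) and measured 1.54 in Lcn2-/- (0.129). Ccn2, a matrix protein and YAP target, rose by 1.82 in WT (0.00251) and measured 1.24 in Lcn2-/- (0.0578), and Tgfb2 rose by 1.18 and 1.45 (0.0184 and 0.0158). Other YAP and TWEAK genes, named after their values were seen, moved both ways. The YAP target Ccn1 averaged 11.1 over WT control, 10.49 over WT CCl4, 10.26 over Lcn2-/- control and 10.34 over Lcn2-/- CCl4 arrays. In the same order Yap1 averaged 14.64, 14.45, 14.57 and 14.27. The TWEAK gene Tnfsf12 averaged 10.89, 10.18, 10.98 and 10.41, and its receptor gene Tnfrsf12a 11.9, 12.59, 11.81 and 11.98. The YAP target Ankrd1 was well above background on 2 of 4 WT control arrays. Named after their values were seen, the Notch target genes Hes1 and Hey1 went opposite ways, Hes1 falling by 1.60 and 0.89 (0.000341 and 0.043) and Hey1 rising by 1.04 and 1.38 (0.00137 and 0.000749). Stellate cell markers are given because those cells also make Ncam1. Of 7 tested, 5 rose and 1 fell in WT, and 5 rose and 0 fell in Lcn2-/-, Pdgfrb by 1.71 and 1.92 and Lrat by 1.06 and 1.16. Their mean ranged from -0.15 to 0.15 over the WT control arrays, -0.34 to -0.16 over the Lcn2-/- control arrays, 0.55 to 0.92 over the WT CCl4 arrays and 0.59 to 0.69 over the Lcn2-/- CCl4 arrays. The part of stellate cells in these values was not tested.

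Most of the other fetal liver genes tested rose after CCl4 as well. Of 19 listed, 16 were tested. Probes of Igf2bp1 and Lin28b, like that of Igf2, were well above background on 0 arrays, CCl4 arrays included. Of the 16, 9 rose and 1 fell in WT, and 11 rose and 0 fell in Lcn2-/-, with medians of 1.33 and 1.84. Over all genes tested, 8.01% rose in WT and 6.57% in Lcn2-/-. H19, the imprinted fetal RNA, ranged from 5.9 to 7.48 over the WT control arrays and from 10.57 to 13.48 over the WT CCl4 arrays, and from 5.76 to 6.77 and from 11.61 to 15.09 in Lcn2-/-. The rise in WT was 5.81 (SE 0.644, limma adjusted p = 3.94e-05), and that in Lcn2-/- mice 7.03 (SE 0.733, 4.05e-05). The probe of its imprinted neighbour Igf2, a fetal growth factor gene, was well above background on 0 of 16 arrays. Dlk1, a surface protein of hepatoblasts, rose by 3.01 and 4.27 (4.11e-05 and 1.22e-05), with 1 of 3 Lcn2-/- control arrays well above background.

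The lipase gene Lpl rose by 2.57 and 2.70 (limma adjusted p = 1.51e-05 and 4.42e-05), Bex1 by 2.18 and 2.45 (1.43e-06 and 1.68e-06), and Scd2, a fatty acid desaturase gene of the fetal liver, by 2.79 and 1.90 (0.000802 and 0.0289). The imprinted genes Plagl1 and Mest rose by 1.96 and 1.12 in WT (0.00196 and 0.0111) and by 2.61 and 1.70 in Lcn2-/- (0.00104 and 0.00238), Cd34 by 2.13 and 2.03 (0.000151 and 0.001) and the RNA-binding protein gene Igf2bp2 by 1.55 and 1.74 (0.000693 and 0.00134). Igf2bp3 and Hmga2 passed in Lcn2-/- (0.00218 and 0.000177) with 0 of 3 control arrays well above background. Only bounds can be given there, at least 3.2-fold and at least 2.07-fold higher, and the p-values do not test those bounds. In WT the 2 genes measured 0.76 and 0.53 (0.263 and 0.0763). Such a bound compares the CCl4 mean with a floor for each control array, which is the dimmest detected probe or the gene's own probe, whichever is brighter. Sall4 fell by 0.75 in WT (0.0499). Several of these genes, among them Dlk1, Cd34 and Plagl1, are also made by cells other than hepatocytes. None of the 16 genes passed in either genotype comparison or in the difference of responses.

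**Figure D5:**
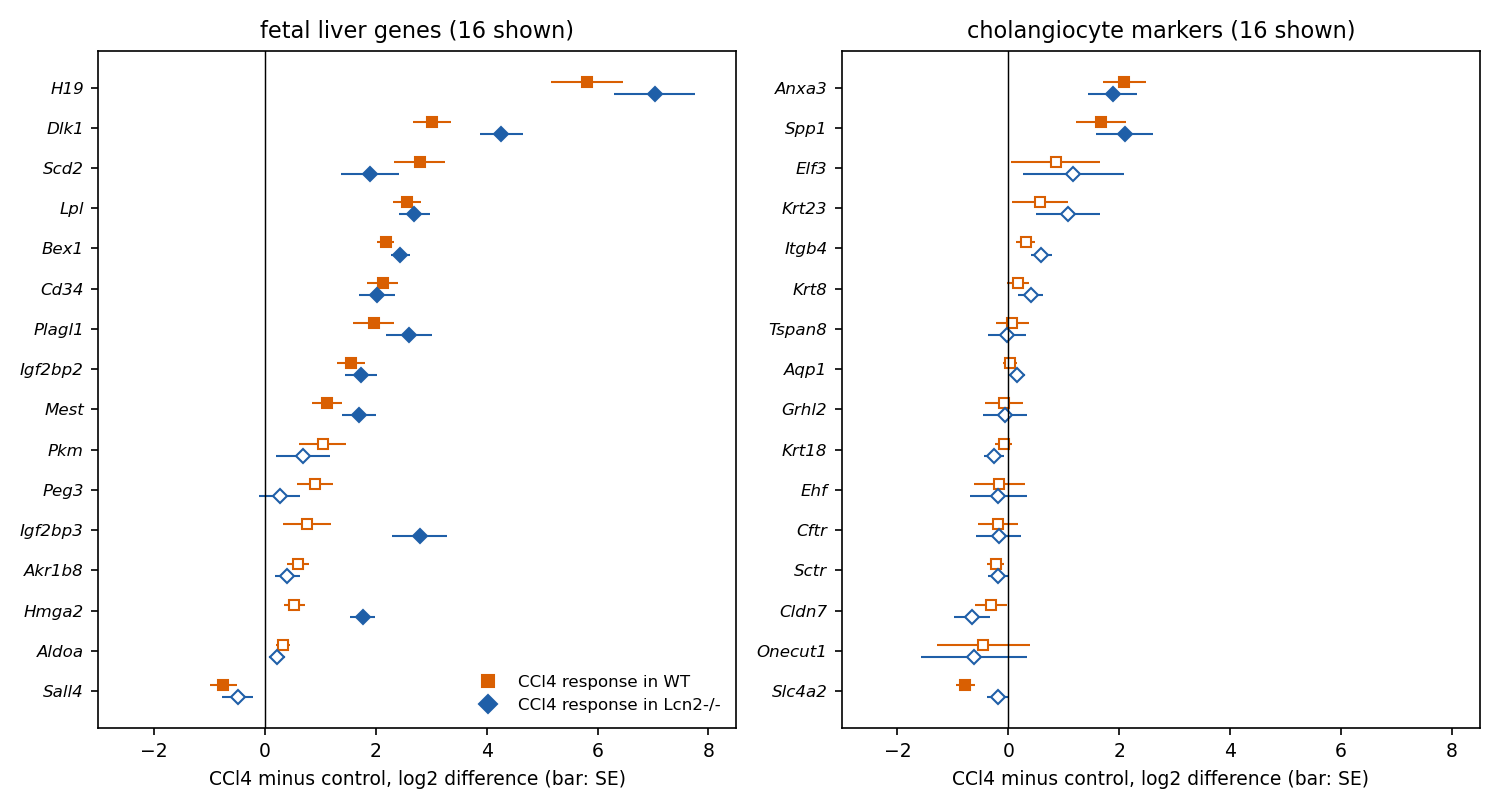
Log2 difference between CCl4 and control for the fetal liver genes (left, 16 genes) and the other cholangiocyte markers (right, 16 of the 17 tested), in WT (squares) and Lcn2-/- (diamonds), with bars of 1 SE; filled symbols passed adjusted p under 0.05. Most fetal liver genes lie right of 0, with H19 at 5.81 and 7.03, while among the cholangiocyte markers Spp1 and Anxa3 are the filled symbols right of 0.

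Of the known regulators of Afp and of hepatocyte identity, 1 passed the test. Among the 14 tested, 0 rose and 1 fell in WT, and none passed in Lcn2-/-, with medians of -0.14 and -0.13. Of all genes tested, 16.8% passed in WT and 12.2% in Lcn2-/-. The gene that fell was Nr5a2, a nuclear receptor that activates Afp, by 0.55 (SE 0.148, limma adjusted p = 0.0198), and it measured -0.53 in Lcn2-/- (SE 0.169, adjusted p = 0.0559). The repressor genes Zhx2, Zbtb20 and Zfhx3 measured -0.05, -0.21 and 0.04 in WT (adjusted p = 0.953, 0.472 and 0.939), and Zbtb20 and Zfhx3 -0.0046 and -0.04 in Lcn2-/- (0.993 and 0.945). The Zhx2 probe was dim, between 4.42 and 6.48 over all arrays, and 0 of 3 Lcn2-/- control arrays had it well above background. Hnf4a and Cebpa measured 0.06 and -0.20 in WT, and neither passed.

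Genes of the mature hepatocyte were compared because fetal genes can return as adult ones are lost. Of 17 tested, 1 rose and 0 fell in each genotype, with medians of 0.10 and 0.09; these were G6pc in WT (1.13) and Cyp3a11 in Lcn2-/- (0.62). Of 18 cell cycle genes tested, 2 rose in WT and 1 in Lcn2-/-, with Cdk1 passing in both (1.20 and 1.51). These counts, like those of the mature hepatocyte genes, were near the shares of all genes that rose, 8.01% in WT and 6.57% in Lcn2-/-. The median log2 change of the cell cycle genes was 0.85 in both genotypes. The cell cycle mean was highest on WT CCl4 array 1, at 2.25, and second highest on WT CCl4 array 2, at 1.24, the same 2 arrays that led in Afp. Over 16 arrays the mean gave r = 0.793 with Afp, 0.593 without the 2 arrays farthest from the median and 0.864 within groups. For Gpc3 these were 0.422, 0.329 and 0.274. The stellate cell mean gave 0.921, 0.901 and 0.751 with Afp and 0.903, 0.932 and 0.436 with Gpc3 in the same order. A control array, WT control 3, had a cell cycle mean of 1.17 and the highest Afp of the controls, 10.63. The part of cell division or of stellate cells in the Afp and Gpc3 values was not tested. Of 8 pancreatic acinar genes, listed because ducts of the pancreas share the keratins and Sox9, 4 were tested, and 1 rose (Amy2a5) and 1 fell (Ctrb1) in WT and none in Lcn2-/-; Cpb1, Pnlip and Prss2 were well above background on 0 arrays and Cpa1 on 1.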

How the data were processed

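The authors hybridised Cy3-labelled liver RNA to an Agilent mouse array and scanned it with Agilent Feature Extraction 10.7.3.1; the deposited scanner files hold each spot's intensity on a linear scale, background-subtracted by that software and not normalized between arrays. A second deposited table gives log2 values for these arrays, whose columns gave r of 0.987 to 0.995 with log2 of the scanner's processed signal, and which served as an alternative. Its centring is not stated in the sources used here.

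After control spots were removed, 59305 gene spots per array were quantile normalized on the log2 scale of that signal, as the study's methods name, and spots marked as outliers by the software were then masked. Spots of a probe were averaged (55681 probes, 121 without a usable spot on some array dropped). A probe was kept if 3 or more arrays had it well above background (33014), and the brightest probe on average stood for each gene symbol (24357 genes). Array names were updated through a RefSeq table of GRCm38.p6, which gave a name to 61% of the genes tested; the others kept the file's name. Probe positions are those of the files, on mm9.

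The 4-group comparisons used limma (version 3.58.1, under R version 4.3.3), in 1 model of the 4 groups with 5 contrasts and Benjamini-Hochberg adjustment over all genes tested; a gene passed at adjusted p under 0.05, with no minimum fold. The fit was tested on simulated data with known changes. The number of arrays limits the precision, and array brightness, taken as the 75th percentile of that signal, ran from 842 to 2067. Groups came from the sample titles. The titles' replicate numbers are shared between groups. Same-numbered WT and Lcn2-/- control arrays deviated together from their group means (r of 0.233 to 0.552 across genes, 3 of 3 over 0.1), which was the case for no other pair of groups, so the numbers were taken to pair the controls alone. A fit with pair effects for control arrays 1 to 3 only was added after seeing the data, beside the planned block of the replicate number over all 4 groups. The origin of that pairing is not given in the sources used here. Nothing in the labels says that the samples of a group came from separate animals, so p-values measure the spread between these samples.

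The members, lists and alternatives were chosen with earlier results of these data known. All members are named whatever their values, as may be any gene of the cholangiocyte, fetal liver and regulator lists. From each other list at most 4 are named, those with the largest mean change among the genes that passed, beside the 3 genes most correlated with each member. Exceptions are said in the text. Some genes of the lists are counted but not reported here by name. No table of proteins was used.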

Additional observations from a re-analysis of the deposited data

Results flagged for a closer look

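Prom1 on WT CCl4 array 3 measured 8.9, while the other 4 arrays of the group lay between 9.99 and 10.22. The gap to the nearest array was 0.829 of the range of the group, above the 95% critical value of Dixon's test. Of 24 groups of members tested in this way, chance would single out about 1.2. Without that array the Prom1 increase in WT was 1.59 on the log2 scale (limma adjusted p = 0.00618).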

How the results depend on the processing

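The increases of Gpc3 in both genotypes and of Afp in WT passed under every alternative run, including each array left out. Besides the results named here, directions held under all alternatives, and no member passed in a comparison of genotypes under any of them. With array weights, 5 members passed in Lcn2-/- in place of 2, adding Krt7 (1.09), Cd24a (1.00) and Prom1 (1.15), while 7054 and 6954 genes passed in WT and Lcn2-/- (4094 and 2968 without weights). Slide as a fixed block left 1302 and 425, and rests on WT CCl4 array 1. Leaving out WT control array 1 left 2498 in WT, and leaving out Lcn2-/- control array 2 left 1683 in Lcn2-/-. Between genotypes under CCl4, 155 genes passed, and 76 without WT CCl4 array 2, 76 without Lcn2-/- CCl4 array 3, 97 without WT CCl4 array 4, 99 without WT CCl4 array 5, 102 without Lcn2-/- CCl4 array 1, 92 with the replicate block, 237 with pairs of controls only, 255 without both control arrays numbered 3, 79 with the array row as a block and 323 with array weights. In controls 129 passed, and 40 with the row, 216 without the filter on dim probes and 1270 with array weights. In the difference of responses 13 passed, and 8 without Lcn2-/- CCl4 array 4, 6 with the replicate block, 3 in the authors' table and 19 with array weights. Scaling to the 75th percentile moved the median of all genes to -0.16 and -0.14. With normexp, the Lcn2-/- response averaged 0.58 over the biliary and progenitor genes (main value 0.76) and 3.14 over the oncofetal genes (3.50), and with the second-brightest probes the former was 0.96, a move that comes from Prom1 alone, whose second probe has no measured control level. With each array left out in turn, 2 to 3 members passed in WT and 1 to 2 in Lcn2-/-. The causes were not tested.

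Some differences that had not passed changed sign, among them Krt19 (0.67) and Krt7 (0.48) between genotypes under CCl4 and Krt19 in WT (0.42). Between genotypes in controls, Krt19 was -0.05 with normexp, -0.05 in the authors' table, -0.25 with array weights and -1.04 with the array row as a block, an alternative chosen after seeing the data. Krt7 was -0.01, -0.11 and -1.28 in the last 3 of these, and Prom1 -0.27 with array weights and -0.09 with the row. The second Prom1 probe gave -0.12, but it was well above background on 0 of 7 control arrays, so this value has no direction. Under CCl4, Cd24a was 0.00018 with normexp, 0.006 in the authors' table and 0.34 with the row, where Krt19 was -0.17, Krt7 -0.61 and Epcam -0.33. The difference of responses of Gpc3 was 0.18 with normexp, 0.08 with slide, 0.34 with array weights and 0.08 with the row. In WT, slide as a block gave 0.29 for Epcam and -0.14 for Cd24a, and array weights -0.19 for Krt19. Leaving out single arrays gave -0.21 to 0.06 for Epcam and -0.02 to 0.24 for Sox9 in WT, -0.10 to 0.19 for Epcam and -0.19 to 0.12 for Cd24a between genotypes under CCl4, -0.22 to 0.38 for Krt19, -0.20 to 0.35 for Krt7 and -0.60 to 0.04 for Afp between genotypes in controls, and -0.32 to 0.41 for the difference of responses of Gpc3.

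The replicate block over all groups also pairs control with CCl4 arrays by number, which the check of the numbers did not bear out, and takes no estimate from WT CCl4 array 5. With it the Prom1 response in WT was 1.32 (adjusted p = 0.0615), the value found without that array and without the block (adjusted p = 0.0396), and no other member's call changed. With the replicate block on the control arrays only, no member's call changed (Prom1 in WT 1.35, adjusted p = 0.0226). With the block over all groups, Epcam was 0.06 in WT and -0.10 between genotypes under CCl4, and Krt19 was -0.10 between genotypes in controls. Signal over background limits Krt7, Zhx2 and the second Prom1 probe, which were dim on control arrays.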
